A study of Mus musculus with 6 samples.

Results

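The 8 genes described here, Scx, Mkx, Tnmd, Tnc, Thbs4, Thbs2, Comp and Chodl, are known from tendon cells or their matrix, and were measured in sorted muscle satellite cells of young and adult mice. They were chosen by name: every non-control probe whose gene name was exactly one of the 8 was taken, which gave 10 probes of the 55681 on the array. Of the 8 genes, 7 passed the filter on dim probes and stood among the 32081 genes tested, and Tnmd did not. Satellite cells are the stem cells of skeletal muscle. They were sorted from male C57BL/6 mice, keeping cells with integrin alpha7 and CD34 and removing cells with CD31, CD45, CD11b or Sca1. Young replicates 1, 2 and 3 came from mice of 3, 2 and 3 months, and all 3 adult replicates from mice of 6 months. All samples shared strain, sex, gate and amplification of the RNA from small cell numbers. No treatment, transgene or deletion was named in the labels. The labels call the samples biological replicates without saying how many mice stood behind each, so p-values measure the spread between these samples.

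Tendon cells join muscle to bone and lay down a matrix of collagen fibrils. Scleraxis (Scx) is a basic helix-loop-helix transcription factor that marks tendon progenitors, pairs with E proteins and binds E-box motifs, and Mohawk (Mkx) is a homeobox factor needed for collagen production in tendon. Tenomodulin (Tnmd) is a membrane glycoprotein of mature tendon cells. Tenascin-C (Tnc), the thrombospondins (Thbs4, Thbs2) and cartilage oligomeric matrix protein (Comp, also a thrombospondin) are secreted glycoproteins of the matrix at the muscle-tendon junction and in tendon. Chondrolectin (Chodl) is a C-type lectin-like membrane protein that is also known from satellite cells themselves, so the label of a tendon cell gene is least specific for it.

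The probe sequences of 3 of these genes are shown because the results turn on what they detect: Tnmd was seen on only some arrays, the probes of Tnc were seen on different arrays, and Comp varied widely between replicates. Each is a designed probe of 60 bases, written 5′ to 3′ in lower case with no part marked, and the files place it on the mouse genome in build mm9. The Tnmd probe lies at chrX:130397487-130397546 on the plus strand and was printed in 10 spots per array. The Comp probe, chr8:72905692-72905825 on the plus strand, covers 134 bases of genome, and Tnc probe 1, chr4:63674248-63675011 on the minus strand, covers 764, so both cross an exon junction. Tnc probe 2 lies at chr4:63643728-63643787 on the minus strand, 30461 bases from probe 1. The files list 3 Ensembl transcripts for each Tnc probe and none that both share.
Tnmd: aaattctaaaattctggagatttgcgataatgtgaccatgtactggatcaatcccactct
Comp: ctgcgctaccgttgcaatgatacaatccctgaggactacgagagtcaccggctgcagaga
Tnc probe 1: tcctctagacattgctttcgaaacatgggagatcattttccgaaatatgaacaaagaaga
Tnc probe 2: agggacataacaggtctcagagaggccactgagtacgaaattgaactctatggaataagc

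Levels are given as log2 of the processed signal minus the 75th percentile of the same array, so 0 is the level of a bright probe and a difference of 1 is a 2-fold change. Levels of different probes are not set against each other. Differences are adult minus young, so a negative difference is lower in adult. Over the 32081 genes, limma with Benjamini-Hochberg adjustment and a threshold of 0.05 called 9145, or 28.5%. Of all genes 8.45% were called lower in adult and 20.1% higher, and the median difference of all genes was 0.30. Over the 17409 named genes, leaving out clone, predicted-gene and lincRNA names, the median difference was -0.031. Of the 7 tested tendon cell genes 1, Scx, was called, and it was lower in adult. The differences of 5 of the 7 were negative and 2 positive, with a median of -1.06, where 40.6% of all genes lay below 0. Other scalings move the median of all genes from -0.24 to 0.45, so each difference below is also relative to the scaling. In bulk samples such as these, fewer cells of a type and less RNA per cell cannot be told apart.

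**Figure D1:**
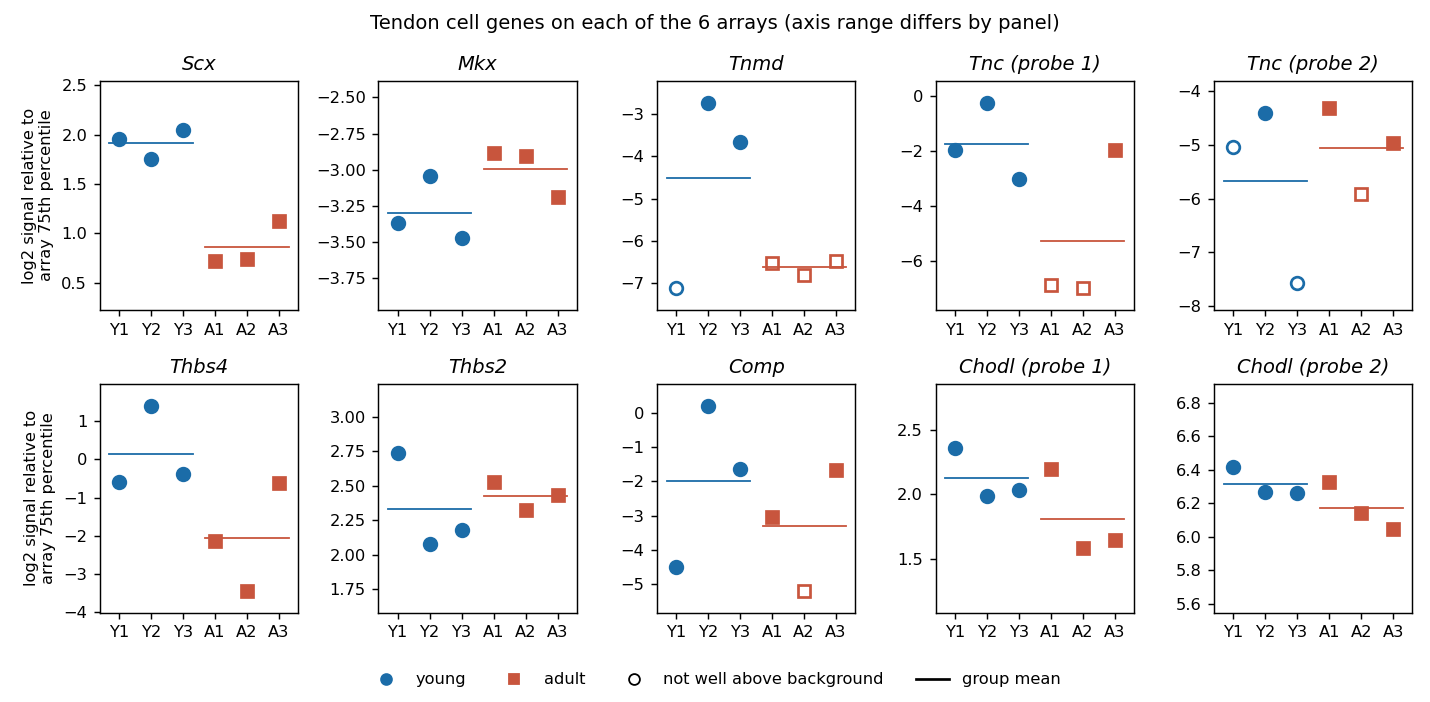
Level of each of the 10 probes of the 8 tendon cell genes on each array (log2 signal relative to the array's 75th percentile, axis range differs by panel), with young arrays Y1 to Y3 as circles, adult arrays A1 to A3 as squares, open symbols for probes not well above background and lines for group means. The young and adult points of Scx and of Thbs4 do not overlap, while Tnmd is well above background on Y2 and Y3 only.

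Scx was the tendon gene with the firmest difference. Its level was 1.96, 1.76 and 2.04 in young replicates 1, 2 and 3, and 0.72, 0.74 and 1.12 in the adult replicates in the same order of number. Each young array lay above each adult one, as 55.6% of all genes separated the groups in one direction or the other and 21.6% did so with adult lower. The means were 1.92 ± 0.15 in young and 0.86 ± 0.23 in adult (SD, n = 3 each). Scx was thus 2.08-fold higher in young, with a log2 difference of -1.06 ± 0.20 (SE, 95% interval -1.55 to -0.56, limma adjusted p = 0.0252). Before scaling, the processed signal was 2145, 2245 and 3152 in young and 889, 1037 and 1159 in adult, so the order of the groups did not come from the scaling. The probe lies at chr15:76289708-76289767 on the plus strand (mm9).

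The arrays lay in 2 rows of 1 slide, each row holding both groups, and the difference of Scx was -1.13 within row 1 and -1.11 within row 2. The call did not survive the loss of most single arrays. It held without young replicate 2, the sample of 2 months (-1.14, adjusted p = 0.0296). Without young replicate 1 or 3 the limma adjusted p was 0.0651 or 0.0615, and without adult replicate 1, 2 or 3 it was 0.0662, 0.0692 or 0.0633, with differences between -1.19 and -0.99. The Scx difference minus the median of all genes, 0.30, was -1.36. The median of the named genes was -0.031, so the distance of Scx from those is smaller.

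Mkx, the other tendon transcription factor, was dim but well above background on all 6 arrays. Its level was -3.37, -3.05 and -3.47 in young and -2.89, -2.90 and -3.19 in adult. The groups overlapped, since young replicate 2 lay above adult replicate 3. The difference was 0.30 ± 0.21 (SE, 95% interval -0.20 to 0.80, limma adjusted p = 0.273). Its sign depended on the scaling, turning negative with quantile (-0.61) and median (-0.24) scaling and in the normexp and series matrix values (-0.29 in each), so no direction is given for Mkx.

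**Figure D2:**
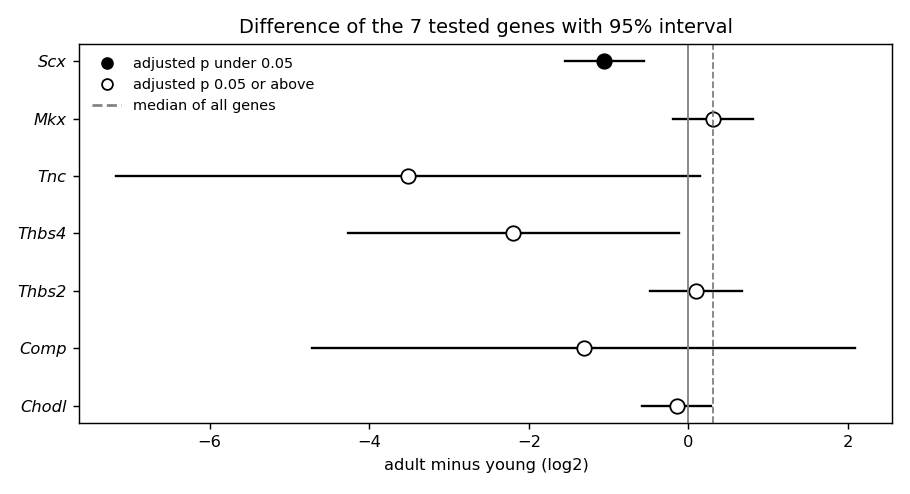
Difference of the 7 tested tendon cell genes (adult minus young, log2) with its 95% interval, filled where the limma adjusted p was under 0.05, and a dashed line at the median of all genes, 0.30. Scx alone is filled, and the intervals of Tnc and Comp are the widest, from -7.17 to 0.15 and from -4.71 to 2.09.

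Tnmd was seen on 2 of the 6 arrays, both young. Its level, averaged over the spots of each array, was -7.11, -2.74 and -3.65 in young and -6.53, -6.81 and -6.47 in adult. In processed signal this was 3.996, 100.4 and 59.8 in young and 6.29, 6.22 and 6.70 in adult. All 10 spots were well above background on young array 2 and on young array 3, and 0 of 10 were on the other 4 arrays. On young array 3, 1 outlier spot was left out of the mean log2 level but kept in the processed signals. The spots of young arrays 2 and 3 ran from 74.4 to 118.3 and from 47.6 to 69.4, so they did not meet the spots of any other array, whose highest was 13.5.

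Young replicate 1 and the 3 adult arrays gave no Tnmd signal well above background, so their values have no order. With 2 arrays above background the gene did not enter the test. In a fit with no filter on dim probes, the difference was -2.10 ± 1.10 (SE, limma adjusted p = 0.182). Because adult had no array well above background, its mean was taken at the lowest signal well above background, or at the probe's own signal where higher. Against that, the young mean over its 3 arrays was 1.55-fold higher. The young mean includes replicate 1 at its own value, which was not well above background, so 1.55 is not a strict lower bound.

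The matrix glycoproteins Tnc and Thbs4 had wider spreads than Scx, and neither was called. The level of Tnc at probe 1, the brighter probe and the one tested, was -1.96, -0.27 and -3.03 in young and -6.86, -6.98 and -1.96 in adult. It was well above background on the 3 young arrays and on adult replicate 3 alone, which lay level with young replicate 1. The log2 difference was -3.51 (95% interval -7.17 to 0.15), with a limma adjusted p of 0.113. As 2 of the 3 adult values were not well above background, no fold is given for it. The difference was -2.72 without adult replicate 1, -2.65 without adult replicate 2 and -2.77 without young replicate 2 (adjusted p = 0.257, 0.262 and 0.237 in limma), and -1.45 (0.288) with the mean of both probes. Without adult replicate 3 no adult array was well above background, and the adjusted p was 0.0632 in limma. Against the lowest signal well above background of any probe on those adult arrays, the young mean was 9.85-fold higher. That signal is not the limit of the Tnc probe itself, so 9.85 is not a strict lower bound. With normexp correction and in the series matrix values the Tnc difference was smaller, -1.64, and was called (limma adjusted p = 0.0486 in each).

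Probe 2 of Tnc was dim on most arrays. Its level was -5.04, -4.39 and -7.58 in young and -4.31, -5.91 and -4.97 in adult, and it was well above background on 1 young and 2 adult arrays. The difference was 0.61 ± 0.89 (SE, limma adjusted p = 0.608 in the fit with each probe as a row, which called 23.5% of all probes kept). That difference is smaller than its SE and rests in part on values not well above background, so it has no direction. The probes, whose sequences are given above, were seen on different sets of arrays, and the part of their separate transcripts in this was not tested.

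Thbs4, a thrombospondin of the muscle-tendon junction, was measured on all 6 arrays (chr13:93521565-93521624, minus strand, mm9). Its level was -0.58, 1.39 and -0.38 in young and -2.12, -3.43 and -0.61 in adult. The groups did not overlap, but young replicate 1 lay next to adult replicate 3, with young replicate 2 far above both. The means were 0.14 ± 1.09 and -2.05 ± 1.41 (SD, n = 3 each), a 4.59-fold higher level in young. The log2 difference of Thbs4 was -2.20 ± 0.85 (SE, 95% interval -4.27 to -0.12) and the limma adjusted p 0.0917. It was called under median scaling (-2.74, adjusted p = 0.0372), with normexp and in the series matrix values (-1.92, 0.0470 in each), and with a trended robust variance (-2.20, 0.0469). The difference was -1.51 without adult replicate 2 (adjusted p = 0.204), -1.57 without young replicate 2 (0.191) and -2.92 without adult replicate 3 (0.0849), none of them called. Within the rows of the slide it was -2.53 and -1.64.

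Thbs2, a thrombospondin that binds matrix proteases, showed no such spread. Its level was 2.74, 2.08 and 2.18 in young and 2.53, 2.33 and 2.43 in adult. All 3 adult values lay inside the young range, and the difference was 0.10 ± 0.24 (SE, 95% interval -0.48 to 0.67, limma adjusted p = 0.758), with a sign that turned under median scaling (-0.45) and without young replicate 2 (-0.032). The probe covers chr17:14804526-14805789 on the minus strand, 1264 bases of genome, and so crosses a junction.

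Comp, which bridges collagen fibrils, varied most among the young replicates of the tested genes of this set. Its level was -4.50, 0.20 and -1.65 in young and -3.04, -5.18 and -1.67 in adult. It was well above background on all arrays but adult replicate 2. The young arrays, all well above background, spanned 26.0-fold, wider than 99.1% of all tested genes. With that spread the difference was -1.31 ± 1.39 (SE, 95% interval -4.71 to 2.09, limma adjusted p = 0.472), and under the 18 alternatives that gave a value the adjusted p ran from 0.157 to 0.904. Without young replicate 1 the difference was -2.57, and without young replicate 2 it was -0.22.

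Chodl had one of the tightest sets of values at its tested probe, while its other probe ranged more widely (0.37 in young and 0.61 in adult on the log2 scale). At probe 2, the probe tested (chr16:78941612-78941671, plus strand, mm9), its level was 6.42, 6.27 and 6.26 in young and 6.33, 6.14 and 6.04 in adult. The groups overlapped and the difference was -0.15 ± 0.18 (SE, 95% interval -0.58 to 0.29, limma adjusted p = 0.527), called only under median scaling (-0.69, adjusted p = 0.0445). Probe 1 (chr16:78951190-78951249, plus strand) read 2.36, 1.99 and 2.04 in young and 2.20, 1.58 and 1.65 in adult, with means of 2.13 ± 0.20 and 1.81 ± 0.34 (SD, n = 3 each). Both probes were well above background on all 6 arrays, and neither parted the groups.

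The genes thus fell apart by how much the replicates of one age differed. The range between replicates of Scx was 0.29 in young and 0.40 in adult on the log2 scale. That of Chodl at its tested probe was 0.15 and 0.28, against medians of 0.60 and 0.62 over all genes. The ranges of Tnc were 2.75 and 5.02 and those of Thbs4 1.98 and 2.82. Both Tnc values at the low end of the adult range, and the lowest Comp value in adult, were not well above background.

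For some genes the highest array of each age was the same one. Young replicate 2 was the highest young array and adult replicate 3 the highest adult array for Tnc, Thbs4 and Comp, 3 of the 7 tested genes. Among all genes 15.7% had that order. Young replicate 2 was the highest of all 6 arrays for the same 3 genes, as for 9.66% of all genes, and the highest young array for these and Mkx, 4 of 7, as for 36.9% of all genes. Among 22 other tendon matrix genes, 4 had young replicate 2 and adult replicate 3 highest within their ages (Col1a1, Col1a2, Fmod and Dcn, fibrillar collagen chains and collagen-binding proteoglycans), a share of 18.2% that is near that of all genes. Young replicate 2 was the highest young array for 12 of the 22. Fmod, a proteoglycan of tendon fibrils, stood at -5.48, 1.64 and 0.57 in young and -4.19, -4.01 and 0.18 in adult. Its value on young replicate 1 was not well above background. Fmod spanned 20.8-fold among the adult arrays, and its difference was not called (-1.58 ± 2.15 SE, limma adjusted p = 0.571). Col1a1 stood at -0.33, 2.90 and 1.27 in young and -1.55, -1.10 and -0.43 in adult (difference -2.31, adjusted p = 0.0752). Scx did not follow the young part of this order, since replicate 2 was its lowest young array.

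**Figure D3:**
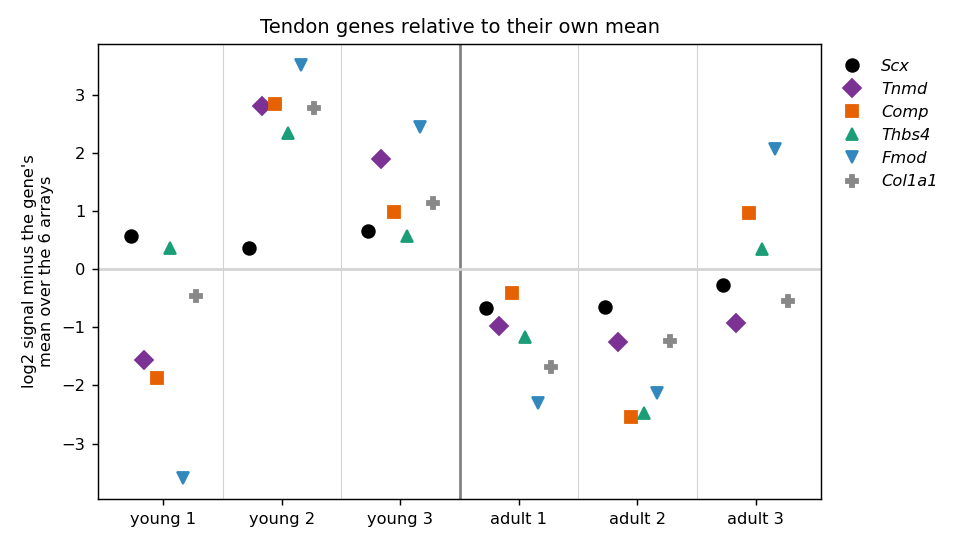
Level of 4 of the tendon cell genes and of Fmod and Col1a1 on each array, as log2 signal minus the mean of the same gene over the 6 arrays. Young 2 is the highest array for all but Scx, and adult 3 lies above the other adult arrays for each gene shown, though no adult value of Tnmd, and neither Tnmd nor Fmod on young 1, was well above background. Mkx, Thbs2 and Chodl, not shown, lack this order: adult 3 is the lowest adult array for Mkx and Chodl, and young 2 the lowest young array for Thbs2. Col1a1 and Fmod were singled out after their values were seen.

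Regulators known to work with Scx or on tendon genes were mixed. Of 12 tested, 1 was called higher in adult, 1 lower and 10 were not called, with a median difference of 0.08. Of all genes 28.5% were called. Tcf12, an E protein that pairs with basic helix-loop-helix factors, fell from 0.91, 0.78 and 0.61 in young to -0.18, -0.32 and -0.39 in adult (difference -1.06 ± 0.18 SE, limma adjusted p = 0.0220), and a second Tcf12 probe gave -0.73. Nfatc4, a calcium-regulated factor, rose by 1.49 ± 0.37 SE (adjusted p = 0.0355), but 1 of its 3 young values was not well above background, and it was called in only 6 of 18 alternatives.

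Signals upstream of tendon genes were also mixed, with 16 of 19 tested, 1 called higher, 2 lower and a median of -0.09, where 28.5% of all genes were called. Tgfb2 and Tgfb3, ligands that induce Scx in the limb, both fell. Tgfb2 went from 1.12, 1.35 and 1.31 in young to 0.25, 0.51 and -0.20 in adult (difference -1.07 ± 0.24 SE, limma adjusted p = 0.0301, second probe -1.34). Tgfb3 went from 1.86, 1.51 and 1.74 to 0.67, 1.08 and 0.61 (-0.92 ± 0.22 SE, adjusted p = 0.0330). Neither had overlapping groups, and each was called in 11 of 19 alternatives. Gdf5, a growth factor of joints and tendons, rose by 0.71 ± 0.19 SE (adjusted p = 0.0426), and was called in 9 of 19 alternatives, in none of those that left out a single array.

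The other tendon matrix genes had the lowest median of the 5 lists, -0.95. Of 27 genes 26 were on the array and 22 were tested, and 8 were called lower in adult, 0 higher and 14 not. Of all genes 8.45% were called lower and 20.1% higher. The differences of the list were negative in 18 and positive in 4, where 40.6% of all genes lay below 0. Eln, elastin, fell by 1.57 ± 0.29 SE (limma adjusted p = 0.0248), Col5a1, a chain of the collagen that starts fibrils, by 1.05 ± 0.21 (0.0257), and Col6a1, a chain of a beaded-filament collagen, by 0.97 ± 0.19 (0.0260). The SDs of these 3 among the young arrays were 0.14, 0.17 and 0.077, against 1.61 for Col1a1. The sum of the linear levels of the list ran from 204.7 to 237.6 on young arrays and from 90.6 to 124.4 on adult arrays, without overlap.

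Of the relatives and receptors of the 8 genes, 4 of 21 tested were called, or 19.0%, against 28.5% of all genes. In the families of the tenascins, thrombospondins, tenomodulin and chondrolectin, 5 of 7 genes were tested and none was called, with a median of -0.05. Tnr, a tenascin of the nervous system, had the smallest p of them (1.16, limma adjusted p = 0.115), followed by Layn (0.80, 0.155) and Thbs3 (-0.54, 0.160). Among receptors of tenascin-C and the thrombospondins 16 of 17 were tested, 1 was called higher and 3 lower, with a median of -0.21. The integrin chain Itgb3 rose by 1.42 ± 0.18 SE (limma adjusted p = 0.0152), and a second probe gave 1.42 with a wide SE of 1.29 and was not called. Calr fell by 1.04 ± 0.18 (0.0220), Itgb1, the shared chain of many matrix receptors, by 0.88 ± 0.19 (0.0291) and Itga8 by 0.91 (0.0467), though Itga8 was called in 7 of 19 alternatives and in none that left out an array. The second probe of Itgb1 gave -0.27 and was not called.

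**Figure D4:**
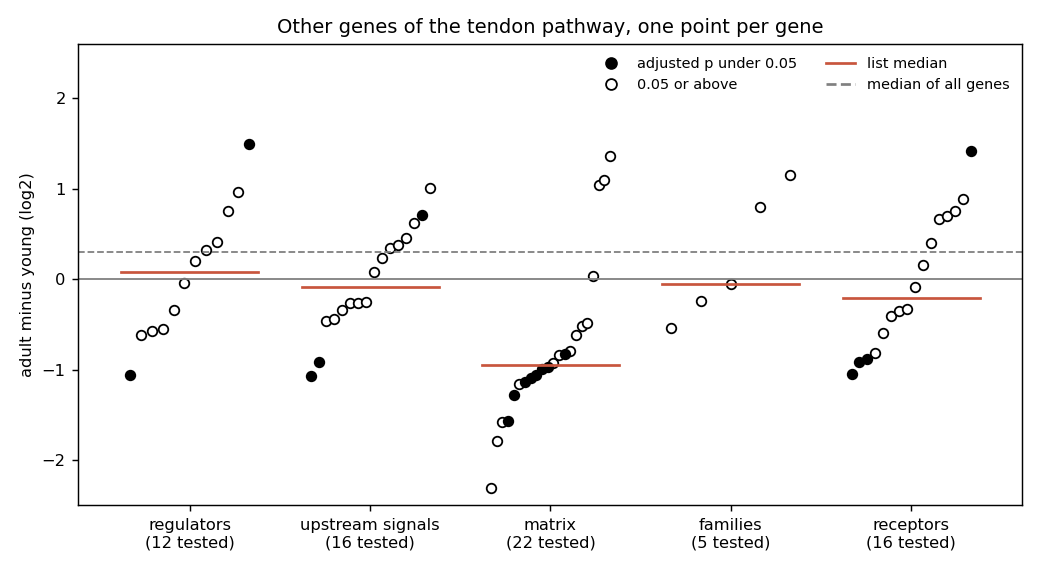
Difference of each tested gene of the 5 pathway lists (adult minus young, log2), sorted within its list, with filled points for a limma adjusted p under 0.05, bars for list medians and a dashed line for the median of all genes. The matrix list has its median at -0.95 and 8 filled points, all below 0, while the other lists have medians from -0.21 to 0.08.

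Markers of the sorted cells and of other cells were read on the same arrays. The counts of markers below stand against 8.45% of all genes called lower in adult and 20.1% called higher. All 10 satellite cell markers were tested, Pax7 among them at 3.89, 3.44 and 3.92 in young and 3.66, 3.51 and 3.05 in adult, and 4 were lower in adult (Cdh15, Megf10, Vcam1 and Calcr). Their summed level, adding the linear values of the tested genes on each array, ran from 114.1 to 139.3 in young and from 89.4 to 123.5 in adult. Of the gate's own 6 genes, 3 differences were positive and 3 negative. Itga7 fell by 1.08 (limma adjusted p = 0.0230) and the other 5 were not called, Cd34 among them (-0.18). The genes for the excluded CD31, CD45, CD11b and Sca1 were each well above background on all 6 arrays, CD11b at the brightest of its 3 probes. So was a probe of 25941 genes in all, where 32081 were tested, so this does not set them apart.

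Fibro-adipogenic progenitors, the connective tissue cells of muscle, share matrix genes with tendon cells. Of 12 markers 11 were tested and Pdgfra, their defining receptor, did not pass the filter. Clec3b, Cxcl14, Pi16 and Dpp4 were called higher in adult and none was called lower, but 6 of the 11 differences were negative, with a median of -0.30. Dpp4 was well above background on 2 of 3 young arrays. The summed level of the list was 23.9, 31.7 and 23.1 on young arrays and 17.9, 15.1 and 18.7 on adult arrays, without overlap. Dcn and Col1a1, counted above with the matrix, are in this list too. Without them, a choice made after the sums were seen, the sums were 14.3, 13.5 and 13.4 in young and 10.71, 11.3 and 9.76 in adult, so young replicate 2 and adult replicate 3 no longer stood highest. Most of each of these sums came from Gsn and Hsd11b1. The part of fibro-adipogenic progenitors in the matrix genes, Tnc, Thbs4 and Comp was not tested.

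Myofibre markers summed to 35.7 to 52.0 in young and 19.3 to 24.5 in adult, of which Atp2a1 alone gave 26.6 to 38.9 and 12.9 to 16.9. Of the 10 genes 5 had positive and 5 negative differences, with a median of -0.013. Myh1, Ryr1, Acta1 and Atp2a1 were lower in adult and Myh2 was higher. Leukocyte markers ran from 8.42 to 10.4 in young and from 12.9 to 14.0 in adult, with Adgre1 and Tyrobp among those higher in adult. Most of each leukocyte sum came from Csf1r, which was not called (difference 0.37). Tyrobp was well above background on 0 young and 3 adult arrays. It passed the filter through adult alone, so its direction was set by the filter. For mural cells the sums were 66.0 to 84.2 and 72.8 to 77.5. Most of each mural sum came from Notch3, also in the satellite cell list, which was not called (difference -0.15). Rgs5, Pdgfrb, Abcc9 and Kcnj8 were called higher in adult, with differences of 1.87, 2.13, 2.37 and 3.58. Acta2 was called lower (-2.10). The overlap of the mural sums therefore does not describe these called genes. Endothelial sums (16.7 to 25.6 and 17.5 to 24.3) and Schwann cell sums (10.9 to 20.6 and 6.58 to 20.5) overlapped, with Ngfr lower in adult among the latter. Cartilage markers summed to between 0.491 and 0.776 in young and between 0.711 and 1.31 in adult, with no gene called and Col2a1 not past the filter. The number of probes well above background also differed, 41526 to 45923 in young and 47552 to 49954 in adult. The part of these values in the differences of the tendon genes was not tested.

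The promoters of 5 of the 8 genes were taken from the RefSeq table (GRCm38.p6), as 6 windows of 250 bases before a start. No window is given for the other genes, which does not show that the table lacks them. The 6 windows were searched for the E-box CANNTG, which reads the same on both strands and is the kind of motif that Scx binds. Across all 32851 such windows, 66.2% held at least 1 E-box, 31.8% at least 2 and 12.2% at least 3. The windows of Tnmd, Thbs4 and Tnc are shown with E-boxes in capitals. Tnmd (chrX:133850758-133851007, plus strand) had 0, Thbs4 (chr13:92794819-92795068, minus strand) had 1 and Tnc (chr4:64047016-64047265, minus strand) had 3. The window of a second Tnc start (chr4:64046937-64047186) overlaps this one, and its 2 E-boxes are among the same 3. The windows of Thbs2 and Chodl had 1 and 4. A match is a description of the letters and not of binding.
Tnmd: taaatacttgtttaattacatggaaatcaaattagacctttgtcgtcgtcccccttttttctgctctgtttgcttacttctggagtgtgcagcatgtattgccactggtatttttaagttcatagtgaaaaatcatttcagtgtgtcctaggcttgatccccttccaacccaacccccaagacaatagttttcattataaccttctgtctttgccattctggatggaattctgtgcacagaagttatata
Thbs4: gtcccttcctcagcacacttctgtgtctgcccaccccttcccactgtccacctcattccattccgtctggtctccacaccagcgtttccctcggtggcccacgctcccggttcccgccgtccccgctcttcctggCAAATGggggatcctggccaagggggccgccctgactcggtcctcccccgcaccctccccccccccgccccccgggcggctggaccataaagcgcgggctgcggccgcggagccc
Tnc: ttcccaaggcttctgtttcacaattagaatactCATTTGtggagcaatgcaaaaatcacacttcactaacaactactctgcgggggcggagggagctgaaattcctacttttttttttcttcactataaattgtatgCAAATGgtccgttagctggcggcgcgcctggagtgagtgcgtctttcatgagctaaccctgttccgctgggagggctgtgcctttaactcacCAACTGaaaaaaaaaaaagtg

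The named genes most like each tested gene across the 6 arrays were found by Pearson correlation over 17402 candidates. Ap2s1 (r = 0.997) and Gbf1 (0.996) lay nearest to Scx, and both were lower in adult, with differences of -1.21 and -0.88 (limma adjusted p = 0.0248 and 0.0264). Tagap (0.986) and Nt5dc2 (0.979) lay nearest to Tnc, Pef1 (0.994) and Psph (0.993) to Thbs4, and Taf7 (0.976) and Mrgprf (0.973) to Comp, and none of these was called. For Mkx they were Vmn1r73 (0.998) and Fabp6 (0.995), for Thbs2 Slc39a2 (0.996) and Ncoa7 (0.989), and for Chodl Tpp1 (0.996) and Ube2d3 (0.993). These correlations rest on 6 arrays that share the age groups, and so describe likeness of pattern alone.

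**Figure D5:**
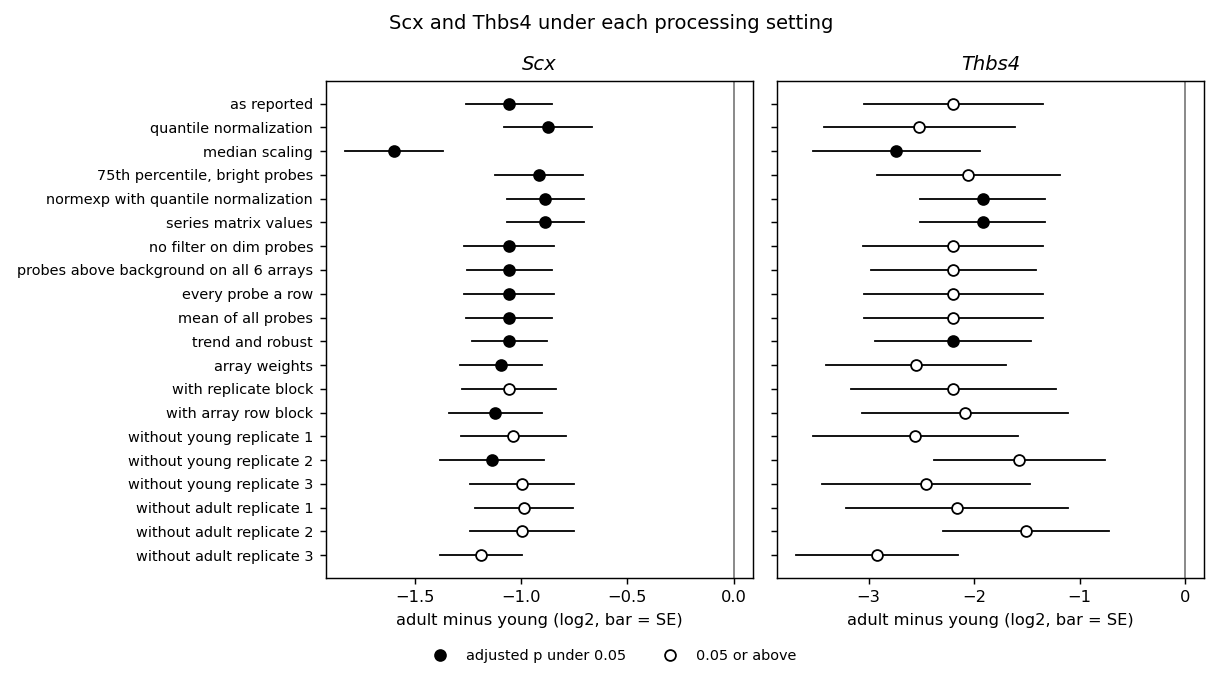
Difference of Scx and of Thbs4 (adult minus young, log2, bar = SE) as reported and under each of 19 alternatives, filled where the limma adjusted p was under 0.05. Every point lies below 0 for both genes, and Scx is filled under 13 alternatives and Thbs4 under 4.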

How the data were processed

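RNA of 3 young and 3 adult satellite cell samples was hybridised to single-colour Agilent arrays of 62976 spots on 1 slide. Scanner images had been read by Feature Extraction 10.7.3.1. The deposited intensity values are background-subtracted processed signals, mean signals and local backgrounds, per the file headers. Values not above background are surrogates. The deposited series matrix holds log2 values (the steps behind them are not given in the sources used here). They differed by at most 0.000106 from a normexp correction (offset 50) with quantile normalization computed here.

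The 3671 control spots and outlier spots were left out, and no spot was saturated. Spots of a probe were averaged, log2 processed signals were set relative to each array's 75th percentile, and probes well above background on at least 3 of 6 arrays were kept. The brightest probe stood for a gene. Symbols were updated through the RefSeq table for GRCm38.p6 (accession 26300 probes, current symbol 2044, older symbol 355), and 26982 probes had no match and were left under their deposited name. Adult minus young was estimated by limma 3.58.1 (R 4.3.3). P-values were adjusted by Benjamini-Hochberg across all tested genes, and the fit was tested on simulated data. A 3 against 3 exact permutation test cannot go below 0.1, so none was used. The number of arrays limits the precision.

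Named were all 8 genes with every probe, the 3 genes with the smallest p of each of 5 pathway lists, the 2 genes most like each tested gene, and every gene of a count of 5 or fewer, except some that are not reported here. Col1a1 and Fmod were singled out after their values were seen. The genes, lists and alternatives were chosen with earlier results of these data known. Alternatives covered scaling, background correction, the filter, the choice of probe, the variance model, blocks and leaving out each array.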

Additional observations from a re-analysis of the deposited data

How the results depend on the processing

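Of all genes, 9145 were called (6435 higher and 2710 lower in adult). Quantile normalization called 5637 (2881 higher, 2756 lower), a block by array row 5965 (4764 and 1201), and leaving out 1 array between 296 (without adult replicate 3) and 7691 (without young replicate 2). The split moved with median scaling (3451 higher, 8813 lower), the 75th percentile of probes above background on all arrays (7900, 1785), normexp or the series matrix (4435, 4093) and a filter on all 6 arrays (5351, 3585). Of the tendon cell genes, 1 was called, against 3 with median scaling (Scx, Thbs4, Chodl), 3 with normexp and 3 in the series matrix (Scx, Thbs4, Tnc), 2 with a trended robust variance (Scx, Thbs4), and 0 to 1 with an array left out. Of the pathway genes, 17 were called, against 34 with median scaling, 26 with the trended robust variance, 10 with the array row block, and 0 to 8 with an array left out. The sign of Mkx turned with quantile (-0.61), median scaling (-0.24), normexp (-0.29) and series matrix values (-0.29), and that of Thbs2 with median scaling (-0.45) and without young replicate 2 (-0.032, and up to 0.30 with another array left out). The cause was not tested. Scx, Tnc, Thbs4, Comp and Chodl kept a negative difference under every alternative run that gave a value.

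With the replicate number as a block, limma called 0 genes of all (12729 at an unadjusted p under 0.05), 0 tendon cell genes (Scx -1.06, adjusted p = 0.0722) and 0 pathway genes (23 unadjusted). Same-numbered samples did not deviate together (correlations -0.0023, -0.094 and -0.14), so the numbers were not taken as pairs. A slide block could not be fitted with 1 slide. Signal over background limits Tnmd, Tnc, Comp and Fmod.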
